A study of Mus musculus with 2 samples.

Results

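The cells described here were peritoneal macrophages of an Ankrd22 knockout library with the highest summed transcript counts of Abca1, Crebrf, Ypel3 and Stxbp3. The study sorted F4/80+ cells from the peritoneal lavage of Ankrd22+/+ and Ankrd22-/- mice and made 1 library per genotype with the 10x Genomics 3' v3 chemistry. The knockout mice were made with CRISPR/Cas9. Mouse age, sex and number per library are not given in the sources used here, so there was no replicate of either genotype, and values of the 2 libraries are set side by side with no test. The knockout library held 6706 barcodes with 110956482 UMIs (unique molecular identifiers, each counted as 1 RNA molecule), and the wild type library (Ankrd22+/+) held 6315 barcodes with 96869041 UMIs. Ankrd22 had 0 UMIs in both libraries, which allows up to 0.0270 and 0.0310 CPM (UMIs scaled to the same total in every group compared) in knockout and wild type, so its transcript did not check the genotype labels. Of the 13021 barcodes of the series, 15 barcode sequences occurred in both libraries, and 5 of these belonged to the high cells described here.

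Members were chosen in the knockout library alone. Barcodes with at least 500 genes and at most 10% mitochondrial UMIs numbered 6360. Of these, 6285 had 5 or more UMIs of Prg4, which encodes lubricin and marks large peritoneal macrophages, and 5523 of those had fewer than 5 UMIs per 10000 of the class II genes H2-Aa, H2-Ab1, H2-Eb1 and Cd74. These 5523 cells were ranked by the summed UMIs of the 4 genes per 10000 UMIs, called the score below. The top 20% were 1104 high cells and the bottom 20% were 1104 low cells. The same rule in the wild type library, which played no part in the choice, ranked 4821 cells and gave 964 high and 964 low cells.

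Large peritoneal macrophages are long-lived resident cells that depend on the transcription factor GATA6 and renew themselves by local division. Abca1 encodes a membrane transporter that moves cholesterol out of the cell onto apolipoproteins, and it is a classical target of the oxysterol-activated liver X receptors (LXR), together with Abcg1, Apoe, Mylip and Pltp. Crebrf encodes CREB3 regulatory factor, which binds the endoplasmic reticulum stress factor CREB3 and responds to nutrient supply, Ypel3 encodes a small protein linked to growth arrest, and Stxbp3 encodes Munc18c, a syntaxin-binding protein of exocytosis. Apoe (apolipoprotein E) and Klf4 (a Krüppel-like transcription factor of myeloid cells) were listed with the 4 genes as markers of these cells but were not part of the score.

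The 4 score genes lie on 4 chromosomes of the mouse GRCm38 assembly. Abca1 spans 53030787 to 53159895 on chromosome 4 (minus strand), and Crebrf spans 26715650 to 26776635 on chromosome 17 (plus strand). Ypel3 spans 126776955 to 126780514 on chromosome 7 (plus strand), and Stxbp3 spans 108793176 to 108840526 on chromosome 3 (minus strand). Because the cells were chosen on these transcripts together, the 250 bases before the start are shown for the 3 score genes in which a searched motif was found there. The sequences are from RefSeq for GRCm38.p6, read 5′ to 3′ on the gene's own strand. Capitals mark the motif matches.
Abca1 promoter, chr4:53159896-53160145, minus strand: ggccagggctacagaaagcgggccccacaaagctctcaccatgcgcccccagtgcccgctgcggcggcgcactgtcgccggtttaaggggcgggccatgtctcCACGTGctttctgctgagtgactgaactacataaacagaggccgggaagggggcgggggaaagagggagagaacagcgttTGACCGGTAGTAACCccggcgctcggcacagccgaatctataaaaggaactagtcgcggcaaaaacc
Crebrf promoter, chr17:26715400-26715649, plus strand: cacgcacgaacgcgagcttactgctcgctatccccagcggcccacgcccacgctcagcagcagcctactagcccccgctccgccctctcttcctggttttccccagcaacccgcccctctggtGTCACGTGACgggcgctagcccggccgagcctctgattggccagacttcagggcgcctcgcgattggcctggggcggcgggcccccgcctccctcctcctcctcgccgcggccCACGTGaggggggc
Stxbp3 promoter, chr3:108840503-108840752, minus strand: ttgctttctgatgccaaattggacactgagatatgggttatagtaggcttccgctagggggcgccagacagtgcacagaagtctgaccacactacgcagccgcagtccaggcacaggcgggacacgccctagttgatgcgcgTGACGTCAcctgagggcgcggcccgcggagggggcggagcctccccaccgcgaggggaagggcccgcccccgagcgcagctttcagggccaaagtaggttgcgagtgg
Motifs were searched on both strands in 300-base windows, 250 bases before to 50 after the start, and the shares below are over 32851 such windows of all genes. The palindrome CACGTG, the core shared by E-box and lysosomal CLEAR elements, is in 7.15% of windows and begins 147 bases before the start of Abca1. In Crebrf the full CLEAR element, the longer run of capitals above and present in 0.326% of windows, begins 127 bases before the start and contains 1 CACGTG, and another CACGTG begins 14 bases before the start. The consensus LXR element, a pair of half-sites spaced by a fixed gap and present in 0.0883% of windows, was in none of the windows of the 4 score genes, Apoe, Klf4 or Mylip. Without its first base, a form added after the sequences were seen and present in 0.207% of windows, it matches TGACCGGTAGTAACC on the opposite strand of Abca1 from 67 bases before the start. Stxbp3 holds the cyclic AMP response element TGACGTCA, also added afterwards and present in 1.79% of windows, from 108 bases before the start. The FoxO letters TGTTTAC (3.65% of windows) were found on the opposite strand of Ypel3 from base 26 of the transcribed part. Matches were not confined to the score genes. CACGTG also begins 182 bases before the start of Klf4. The FoxO letters also lie on the opposite strand of an Apoe window, from 5 bases before its start. These are letter matches in fixed windows, and binding was not measured.

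The score ran as a continuous scale with a long upper tail. Its median over all ranked knockout cells was 1.79 UMIs per 10000, its median in the high cells was 6.23 and its highest value was 18.6 (33.5 in the wild type library). The first high cell had 4.19229 per 10000 (6 UMIs of 14312) and the cell just outside had 4.19221 (8 UMIs of 19083). At the lower end the last low cell had 0.630557 per 10000 and the next cell 0.631433, each from 1 UMI. The score of a cell thus rests on few molecules: high cells had a median of 8 score UMIs (quartiles 6 and 11), and 601 of the 5523 cells had none. In the wild type library the median over all cells was higher, at 2.20 per 10000, but the high cells reached a median of only 5.12.

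**Figure D1:**
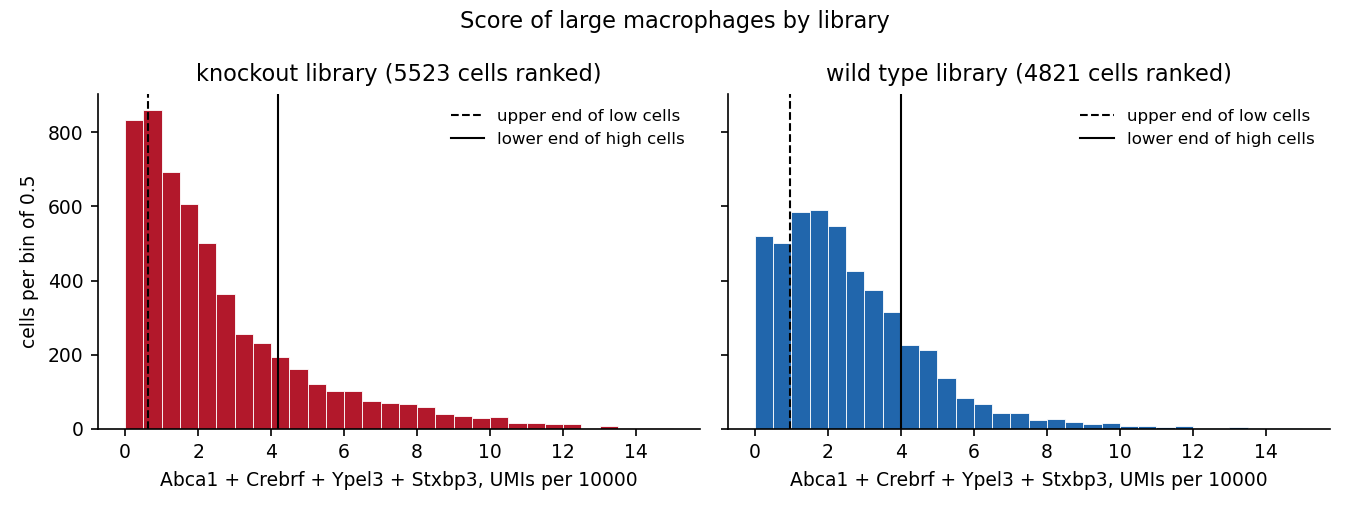
Number of ranked cells (y axis, in bins of 0.5) against the score in UMIs per 10000 (x axis) for the knockout (red) and wild type (blue) library drawn up to 15, with 12 knockout and 7 wild type cells above it; the dashed line is the upper end of the low cells and the solid line the lower end of the high cells. Most cells of both libraries lie at the low end with a tail to the right, and the high cells start at 4.19 in the knockout library, with a median of 6.23.

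All 4 genes contributed to the high cells. In the summed high cells of the knockout library Abca1 stood at 139 CPM against 2.96 CPM in the low cells, Crebrf at 68.3 against 1.90, Ypel3 at 227 against 11.9 and Stxbp3 at 228 against 10.0. In wild type cells the same order of groups gave 151 and 8.07 CPM for Abca1, 43.6 and 3.93 for Crebrf, 193 and 18.0 for Ypel3, and 169 and 13.9 for Stxbp3. These differences are what the ranking selected and are given as a description. Stxbp3 supplied 34.4% of the score UMIs of the knockout high cells, Ypel3 34.3%, Abca1 20.96% and Crebrf 10.3%. Among the 1104 cells, 361 (32.7%) held UMIs of all 4 genes, 484 (43.8%) of 3, 231 (20.9%) of 2, and 28 (2.54%) of 1 gene only.

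The high cells were large macrophages by the markers outside the gate. Gata6 was at 197 CPM in high and 165 CPM in low cells of the knockout library. After thinning each cell to 5000 UMIs it was seen in 55.9% of 1066 high cells (exact binomial 95% interval 52.9 to 58.9%) and 52.4% of 1068 low cells (49.4 to 55.5%), against 84.1% and 86.7% unthinned. Timd4, a phosphatidylserine receptor of resident macrophages, was at 144 and 110 CPM, Adgre1 (F4/80) at 598 and 616, the adhesion molecule Icam2 at 1037 in high and 1426 in low cells, and Csf1r, the receptor for macrophage growth factor, at 465 and 268 CPM. Of the 28 measured members of the large macrophage list 7 were at least 1.5-fold higher in high cells and 2 lower (Serpinb2 and Pf4), with a median log2 ratio of 0.25. Intervals and limits given here and below cover counting error only.

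Depth differed between high and low cells and has to be read beside every ratio. High cells had a median of 12533.5 UMIs and 3137 genes in the knockout library, and low cells 17622.5 UMIs and 3680 genes. Wild type high and low cells had medians of 12621.5 and 14026 UMIs. Part of the knockout gap is set by the rule. The 601 knockout cells with no score UMI had a median of 14437 UMIs. A knockout cell with 1 score UMI needed at least 15859 UMIs to enter the low group. How much of the gap comes from this was not tested. From the lowest to the highest quintile of cells by score, the knockout medians were 17618, 17622, 17447, 16273 and 12533.5 UMIs. The wild type medians were 14027, 15806, 15655, 14881 and 12621.5 UMIs, so depth there did not fall steadily with the score. The median mitochondrial share was 1.53% in high and 1.48% in low knockout cells, and the ribosomal protein share was 20.4% and 19.8%. Cells were therefore also ranked within 10 bins of total UMIs, where the high and low medians were 16271 and 16287.5 UMIs. Ratios from that ranking are printed with Apoe, Klf4, Abcg1, Mylip, Marco and Ccnd1, and medians of several lists near the end. Ratios of other genes moved too, such as Srm from -2.23 to -1.71 and Nop58 from -1.74 to -1.34. Summed counts cannot tell fewer cells with a transcript from less transcript per cell.

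When a score gene was left out and cells were ranked by the other 3, the gene left out was still higher in the high cells of both libraries. In the knockout library Crebrf was at 53.5 CPM in high and 8.05 CPM in low cells of that ranking, a log2 ratio of 2.59 (95% interval 2.37 to 2.82). Abca1 was at 98.1 against 19.3 CPM (2.29, 2.13 to 2.45), Stxbp3 at 166 against 50.9 CPM (1.68, 1.57 to 1.79) and Ypel3 at 169 against 61.9 CPM (1.43, 1.33 to 1.54). The wild type library gave smaller ratios for each gene: Abca1 0.70 (0.56 to 0.85), Crebrf 0.66 (0.43 to 0.89), Stxbp3 0.62 (0.49 to 0.75) and Ypel3 0.44 (0.32 to 0.56). The 4 genes were chosen together with results of the knockout library known, so the larger ratios there are a description, and the wild type ratios are those of a library the rule did not use.

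**Figure D2:**
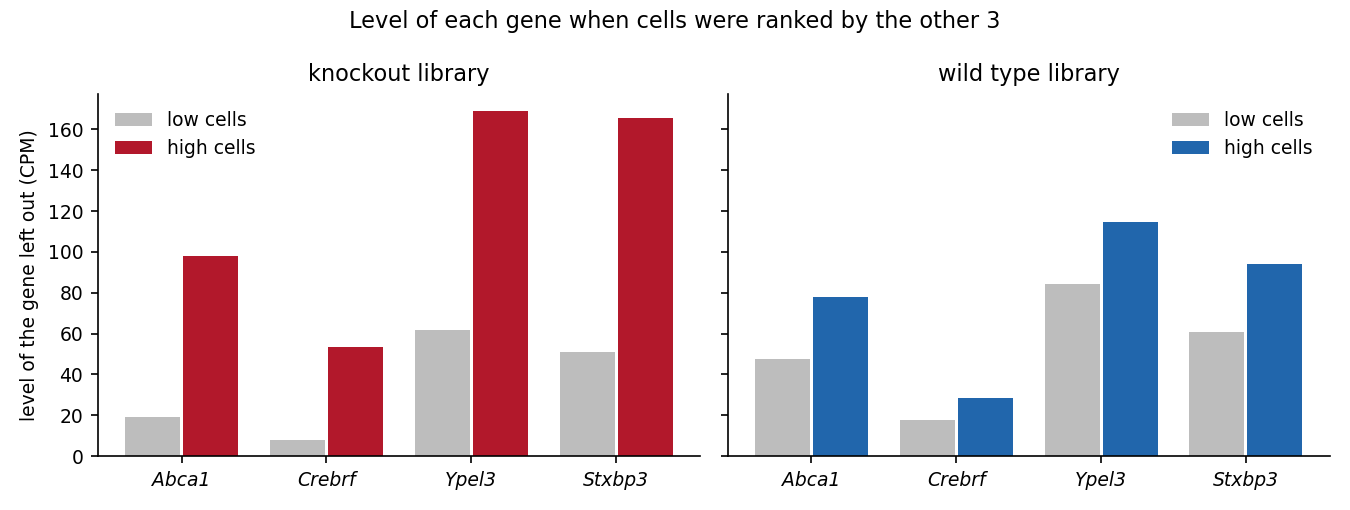
Level in CPM (y axis, from 0) of each score gene in high and low cells (grey bars: low cells) when cells were ranked by the other 3 genes, in the knockout (left) and wild type (right) library; 1 library per genotype, so no error bars. Every gene is higher in the high cells, by 5.08-fold for Abca1 in the knockout and 1.64-fold in the wild type library.

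Apoe, the secreted apolipoprotein that accepts cholesterol from the transporters, was 2.57-fold higher in the high cells of the knockout library. It stood at 16025 CPM in high and 6224 CPM in low cells (log2 ratio 1.36), and at 17941 and 14404 CPM in the wild type library (0.32). The knockout low cells thus had the lowest level of the 4 groups, at 113 UMIs per cell, and the knockout high cells lay between the wild type groups. The cells themselves were spread widely, with quartiles of 63.1, 127 and 239 Apoe UMIs per 10000 in knockout high cells and 26.5, 49.5 and 84.6 in low cells. Klf4 showed the same arrangement, with 257 and 89.0 CPM in knockout high and low cells (1.52) and 305 and 218 CPM in wild type (0.48). Within bins of total UMIs the knockout ratios were 1.04 for Apoe and 1.28 for Klf4.

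Across the transcriptome 718 of 5398 genes that reached 20 CPM in at least 1 of the groups were at least 1.5-fold higher in the high cells of the knockout library (13.3%), and 644 were at least 1.5-fold lower (11.9%). The score genes are not in these counts. The median log2 ratio of all genes tested was 0.04. In the wild type library 117 of 4780 genes were higher (2.45%) and 117 lower (2.45%). The balance of higher and lower depends on the scaling: 52.7% of the knockout calls were higher with CPM, 32.4% with TMM factors (450 higher, 937 lower) and 26.4% with median of ratios factors (381 higher, 1064 lower), which shift every log2 ratio by -0.13 and -0.18. Within bins of total UMIs the counts were 501 higher and 410 lower.

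Abcg1, Marco, Bmp2 and Mylip had the highest ratios among genes that reached 50 CPM. Abcg1, the partner transporter of Abca1 that loads cholesterol onto high-density lipoprotein, was at 66.6 CPM in high and 15.2 CPM in low knockout cells, a log2 ratio of 2.06 (1.88 to 2.24). In wild type cells it was at 33.0 and 14.4 CPM (1.15), so the low cells of the libraries were alike and the knockout high cells stood highest. After thinning, Abcg1 was seen in 24.7% of high cells (22.1 to 27.4%) and 8.24% of low cells (6.66 to 10.1%), against 48.7% and 21.1% unthinned. Mylip, a ubiquitin ligase of lipoprotein uptake, was at 61.9 and 19.5 CPM (1.62) and, in wild type, at 42.8 and 18.3 CPM (1.18). Marco, a scavenger receptor, was at 63.6 and 15.03 CPM (2.01) and, in wild type, at 105 and 35.1 CPM (1.55). Its UMIs came from a minority of cells. After thinning, Marco was seen in 8.54% of knockout high cells (6.93 to 10.4%) and 4.12% of low cells (3.01 to 5.49%), against 15.1% and 10.4% unthinned. Within bins of total UMIs the knockout ratios of Abcg1, Mylip and Marco were 1.78, 1.40 and 1.94.

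The other genes among the 14 with the highest ratios came from several functions. Bmp2, a secreted growth factor, was at 69.7 CPM in high and 18.4 CPM in low cells (1.87) and at 82.8 and 45.7 CPM in wild type (0.84). Klhl24 (148 and 51.2 CPM, 1.51) encodes an adaptor for protein degradation, Btg1 (242 and 84.8 CPM, 1.5) an anti-proliferative protein, Mpeg1 (359 and 127 CPM, 1.49) the pore-forming perforin-2 of macrophages, and Fcgrt (183 and 64.3 CPM, 1.49) the neonatal Fc receptor. Gpcpd1, Ephx1 (epoxide hydrolase), Hist1h1c (a linker histone), Tcp11l2, Neurl3 and Ctdsp2 had ratios of 1.43 to 1.58. Over the quintiles of cells by score, 13 of the 14 genes increased at every step in the knockout library, the exception being Marco, and 12 of 14 in the wild type library, the exceptions being Hist1h1c and Btg1. All 14 were higher in wild type high cells and 11 of them by at least 1.5-fold.

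**Figure D3:**
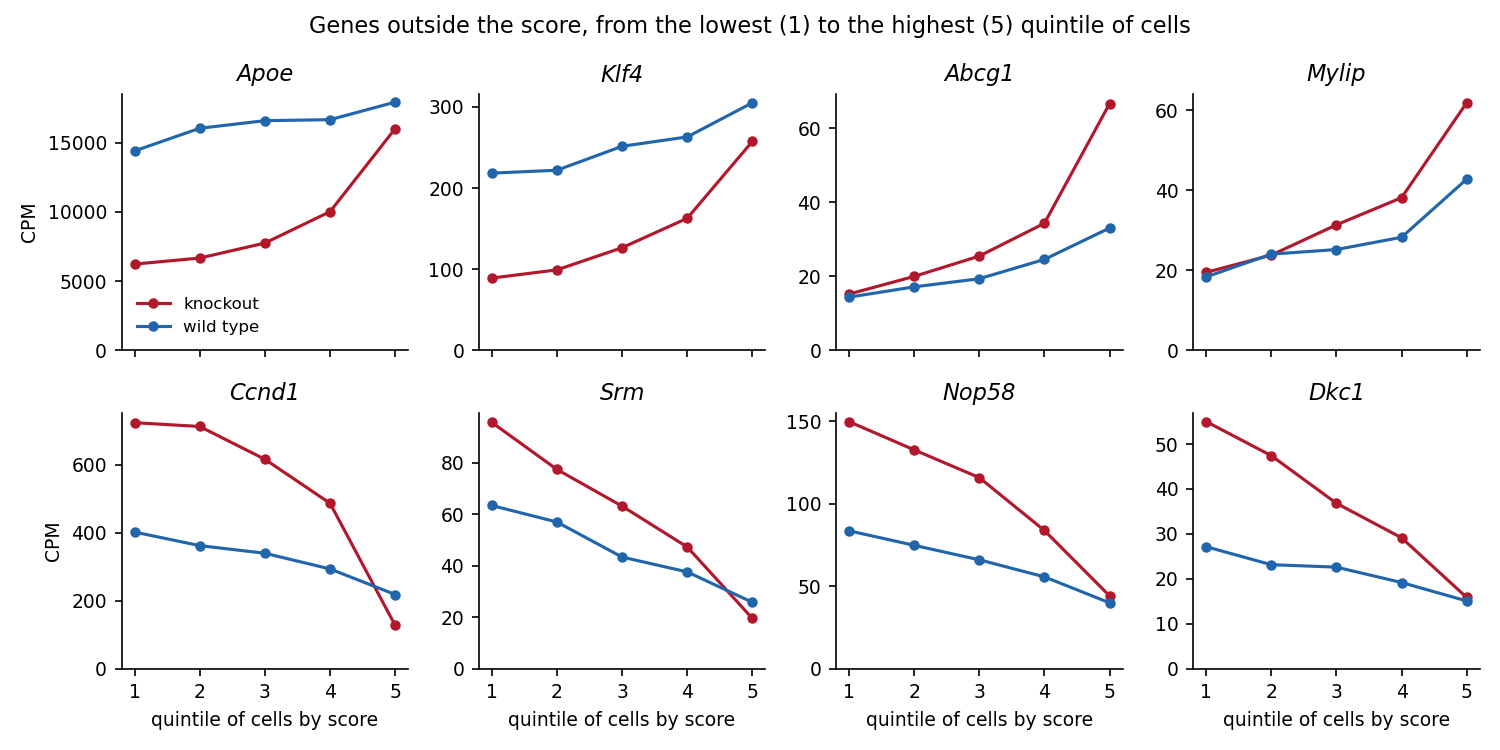
Level in CPM (y axes, from 0) of 8 genes outside the score in the 5 quintiles of ranked cells (x axis, 1 lowest to 5 highest score), in the knockout (red) and wild type (blue) library, each point the summed cells of 1 quintile of 1 library. The steepest knockout step is to the highest quintile for Apoe (10021 to 16025 CPM), Ccnd1 (487 to 128 CPM), Srm (47.3 to 19.6 CPM) and Nop58 (83.9 to 44.3 CPM). Apoe rises and Ccnd1, Srm and Nop58 decline at every step in both libraries.

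On the lower side the lowest ratio among genes that reached 50 CPM was that of Ccnd1, which encodes cyclin D1, the driver of entry into the cell cycle. It stood at 128 CPM in the high cells and 725 CPM in the low cells of the knockout library, or 1.72 and 13.1 UMIs per cell, a log2 ratio of -2.496 (-2.57 to -2.43). Both wild type groups lay between these values, at 219 and 403 CPM (-0.88). After thinning, 19.8% of knockout high cells (17.4 to 22.3%) and 87.5% of low cells (85.4 to 89.5%) held a Ccnd1 UMI, against 31.3% and 93.6% unthinned, and the wild type shares were 48.4% and 69.3%. The decline was concentrated at the upper end of the score: the 5 quintiles of the knockout library stood at 724, 713, 617, 487 and 128 CPM. Within bins of total UMIs the knockout ratio was -1.30.

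The other 13 genes, taken by ratio and not from a list, included 6 of ribosome production. Srm (spermidine synthase, of polyamine production) was at 19.6 CPM in high and 95.6 CPM in low cells (-2.23) and at 25.8 and 63.2 CPM in wild type (-1.26). Nop58, a core protein of the ribonucleoproteins that methylate ribosomal RNA, was at 44.3 and 150 CPM (-1.74) and, in wild type, at 40.04 and 83.6 CPM (-1.04). Dkc1 (-1.73), Gar1 (-1.56) and Nhp2 (-1.40) encode subunits of the complexes that pseudouridylate ribosomal RNA, and Mrto4 (-1.52) and Nop16 (-1.42) encode ribosome assembly factors. Ran (160 and 429 CPM, -1.42) and Ranbp1 (116 and 331 CPM, -1.51) serve nuclear transport, Apex1 (-1.52) DNA repair, and Mettl1 (-1.42) transfer RNA methylation. All 14 of the genes with the lowest ratios declined at every step over the quintiles in the knockout library and 13 of 14 in the wild type library (not Stmn1), and all 14 were at least 1.5-fold lower in wild type high cells too.

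Cycling cells were fewer among the high cells, at unmatched and at matched depth. Cells with 5 or more UMIs of 9 cycle genes numbered 5 of 1104 high cells (0.453%, 0.147 to 1.05%) and 66 of 1104 low cells (5.98%, 4.65 to 7.54%) in the knockout library, and 21 (2.18%) and 63 (6.54%) of 964 in wild type. Among cells ranked within bins of total UMIs they numbered 18 of 1100 high cells (1.64%, 0.973 to 2.57%) and 68 of 1100 low cells (6.18%, 4.83 to 7.77%) in the knockout library, and 24 and 70 of 960 in wild type. All 15 measured members of the cell cycle list were lower in knockout high cells, 14 by at least 1.5-fold, with a median of -1.70. With cycling cells left out the list median was -0.82, Stmn1 (stathmin, a microtubule regulator) went from -2.25 to -1.02 and Mcm6 (a helicase of replication) from -1.70 to -1.09, while Ccnd1 stayed at -2.51 and Srm at -2.24. With each cell thinned to 5000 UMIs before ranking and ties given to cells with fewer genes, the list median was 0.46, Stmn1 1.78 and Mcm6 0.46. In that ranking 2138 of 5433 cells had no score UMI left, so the 1086 low cells were those of the 2138 with the fewest genes. Their median was 3230 genes, against 3556 over all cells ranked. With the same ties in barcode order the list median was -1.14.

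The wild type library, which the rule did not use, showed the same genes moving in smaller steps. Of the 718 genes higher in knockout high cells 580 were tested in the wild type library, and 575 of them (99.1%) had a ratio above 0 there, against 52.6% of all genes tested in both, with a median of 0.42. Of the 549 lower genes tested there 541 (98.5%) were below 0, against 47.4% of all, with a median of -0.41. Genes past 1.5-fold in both libraries numbered 94 on the higher side (13.1% of the knockout and 80.3% of the wild type list) and 111 on the lower side (17.2% and 94.9%). No gene passed 1.5-fold in opposite directions. High cells had fewer UMIs than low cells in both libraries. The part of depth in this sharing was not tested beyond the counts within bins of total UMIs, which were 98 higher and 121 lower in the wild type library.

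**Figure D4:**
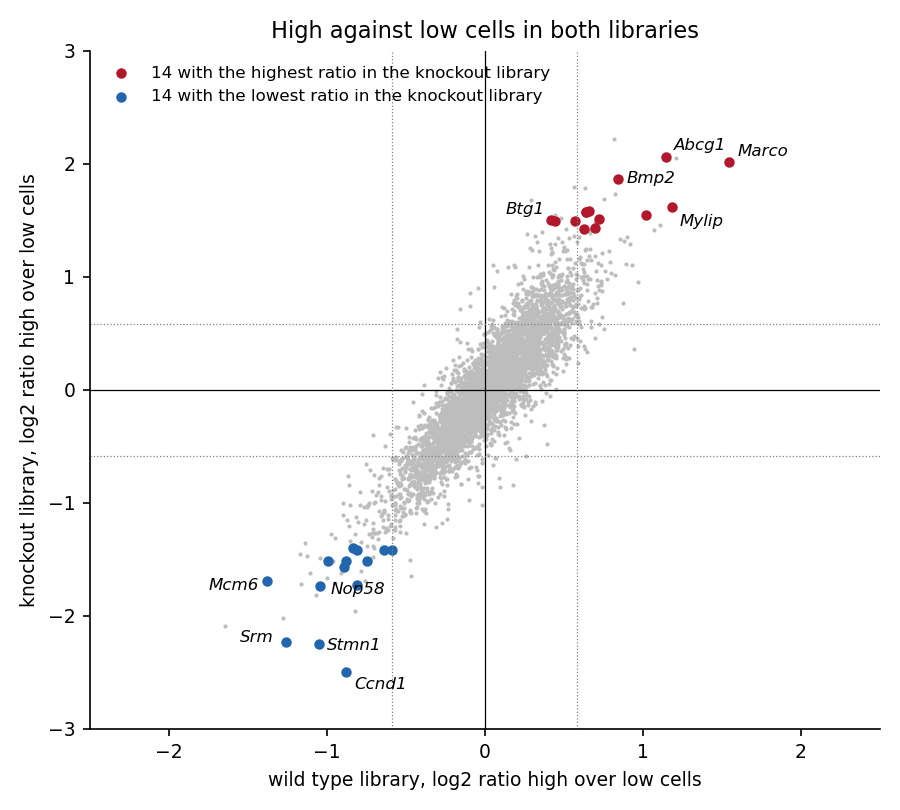
Log2 ratio of high over low cells in the knockout library (y axis) against that in the wild type library (x axis) for 4665 genes that reached 20 CPM in a group of each library, 2 more genes lying outside the axes; dotted lines mark 1.5-fold, and the 14 highest (red) and 14 lowest (blue) knockout genes are coloured. The cloud rises from lower left to upper right with larger ratios on the knockout axis, and the coloured genes keep their sign in the wild type library.

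Set side by side, the high cells of the 2 libraries had closer levels of Apoe and Klf4 than the low cells did. Between high cells, knockout over wild type, the log2 ratio was -0.16 for Apoe and -0.24 for Klf4, and between low cells it was -1.21 and -1.28. For Ccnd1 the ratios were -0.77 in high and 0.85 in low cells, so the knockout high cells were below and the low cells above their wild type counterparts. Abcg1 was the reverse case, with 0.99 in high and 0.08 in low cells. Whether these differences belong to the genotype or to the library cannot be told apart.

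Among the LXR targets and sterol efflux genes 15 of 26 reached 20 CPM and were counted as measured. The counts of this and the following lists stand beside 13.3% of all knockout genes tested at least 1.5-fold higher and 11.9% lower. Of the 15 genes, 6 were higher: Abcg1, Apoe, Mylip, Pltp (phospholipid transfer protein, 771 and 378 CPM, 1.03), Npc1 (lysosomal cholesterol export, 33.1 and 18.9 CPM, 0.77) and Abca7 (20.2 and 13.0 CPM, 0.60). Lpl, lipoprotein lipase, was lower at 113 against 202 CPM (-0.84). The list median was 0.53, and in the wild type library 0.33 over 16 measured genes with 4 higher. The receptors themselves were low: Nr1h3 (LXR alpha) was at 5.78 and 3.86 CPM and Nr1h2 (LXR beta) at 40.8 and 32.4 CPM. Of the cholesterol synthesis genes, Srebf2 (the synthesis regulator) was lower at 13.6 against 23.4 CPM, and Mvd and Insig1 were at -0.32 and 0.07. Of 12 ABC transporters 4 were higher, Abca9 at 82.0 against 39.1 CPM (1.05) and Abcc5 (0.60) besides Abcg1 and Abca7, and Abce1, a ribosome recycling factor, was lower (-0.96).

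Of 18 measured members of the FoxO, quiescence and growth arrest list 12 were at least 1.5-fold higher and none lower (13.3% and 11.9% of all genes), with a median of 0.75 against 0.04 for all genes (wild type 0.43, 1 of 17 higher). They included Cdkn1b (the cyclin-dependent kinase inhibitor p27, 47.0 and 19.6 CPM, 1.22), Mxd4 (a Myc antagonist, 154 and 73.1 CPM, 1.06), Mxi1 (another Myc antagonist, 24.5 and 7.51 CPM, 1.59) and Txnip (a brake on glucose uptake, 438 and 256 CPM, 0.77). Both measured relatives of Ypel3 were higher: Ypel2 at 41.8 against 9.32 CPM (2.05; wild type 30.1 and 12.4, 1.21) and Ypel5 at 72.3 against 45.3 CPM (0.66). In contrast none of 15 measured SM proteins and exocytic SNAREs, a list chosen for Stxbp3, passed 1.5-fold in either direction, with ratios of -0.30 (Scfd1) to 0.45 (Snap23). The circadian clock list had 7 of 9 measured genes higher, among them Dbp (35.8 and 11.5 CPM, 1.56), Per3 (1.48), Nr1d2 (1.18) and Tef (1.17), and 1 lower, Nfil3 (-0.86), with a median of 0.89. Dbp, Per3, Nr1d2 and Tef reached the 20 CPM limit in the high cells only, which favours counting them as higher. In low cells Per3 was at 10.4, Nr1d2 at 13.6 and Tef at 12.4 CPM. Wild type cells had Dbp at only 2.42 and 0.71 CPM, and 4 wild type clock genes reached the level with none past 1.5-fold.

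Transcription factors of the KLF family and immediate early genes had medians above that of all genes. All 8 measured KLF genes were above 0 and 6 past 1.5-fold, such as Klf3 (247 and 128 CPM, 0.94), Klf7 (0.71) and Klf13 (0.64), with a median of 0.64. Of 23 immediate early genes 13 were higher, among them Fosb (0.98), Junb (1109 and 570 CPM, 0.96) and Egr1 (456 and 235 CPM, 0.95), and Myc was lower (24.6 and 40.1 CPM, -0.68), with a median of 0.63. Wild type medians were 0.33 and 0.37, with 0 and 2 genes past 1.5-fold. Of 14 inflammatory and NF-kB feedback genes 6 were higher, among them Tnfaip2 (1.34), Cxcl16 (1.10) and Nfkbiz (1.04), and Cxcl2 (261 and 474 CPM, -0.86) and Osm were lower. The highest ratio of the list, 1.49, was that of a member not named here.

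Lysosome genes under TFEB and TFE3, which read the CLEAR letters, were higher in 7 of 23 measured cases and lower in none, with a median of 0.35 (wild type 0.28). Fnip1 (a nutrient-sensing partner of folliculin) was at 44.99 against 18.6 CPM (1.23), Mitf at 37.3 against 18.9 (0.94), Sqstm1 (the autophagy receptor p62) at 103 against 56.0 (0.87) and Tfe3 at 45.5 against 27.5 (0.71). The CREB3 and unfolded protein response list, chosen for the partner of Crebrf, moved mostly the other way: 8 of 20 measured genes were lower and 1 higher, with a median of -0.23 (wild type -0.35). The lower genes were chaperones and secreted factors of the endoplasmic reticulum, among them Manf (167 and 343 CPM, -1.04), Sdf2l1 (-0.998), Creld2 (-0.84) and Hspa5 (526 and 809 CPM, -0.62), and the higher gene was the stress sensor Ern1 (46.2 and 18.3 CPM, 1.29). Of 6 integrated stress response genes 1 was higher, Ppp1r15a (1.04), while Cebpg, Slc3a2 and Nupr1 were at 0.52, -0.28 and 0.22.

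Of 13 heat shock proteins 11 were at least 1.5-fold lower, against 11.9% of all genes, with a median of -0.83 (wild type -0.45, 4 of 13 lower). Hspb1 was at 15.2 against 44.4 CPM (-1.49), Hsph1 at -1.40, and the mitochondrial chaperonins Hspd1 (97.0 and 235 CPM) and Hspe1 (154 and 333 CPM) at -1.27 and -1.11. Of 13 glycolysis genes 7 were lower, with a median of -0.59, among them Ldha (356 and 676 CPM, -0.92), Gapdh (-0.79), Pfkl (-0.71) and Pgk1 (-0.68), and in the wild type library 0 of 14 passed 1.5-fold with a median of -0.28. Of 14 fatty acid genes 1 was higher, Pnpla2 (the triglyceride lipase, 60.8 and 28.4 CPM, 1.07), and 1 lower, Fabp5 (-0.68). None of the 12 mitochondrially encoded genes passed 1.5-fold.

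The counts of the immune lists stand beside 13.3% of all genes higher and 11.9% lower. Of 6 interferon gamma response genes 3 were higher, Iigp1 (1.75), Irf8 (0.81) and Gbp2 (0.79), against 0 of 5 in the wild type library. Of 10 type I interferon genes 2 were higher (Ifih1 and Parp14) and 1 lower (Bst2, -0.73). Complement genes went both ways: C3 (1.01), C4b (1398 and 696 CPM, 1.005) and C3ar1 (0.78) were higher, while the subunits C1qa (1323 and 1743 CPM), C1qb (2160 and 3051 CPM) and C1qc (1655 and 2132 CPM) were at -0.40, -0.50 and -0.37, short of 1.5-fold. Of 11 scavenger receptors 2 were higher, Marco and Lrp1 (0.66), and Cd9 was lower (-0.65). Of 6 nuclear-retained RNAs 2 were higher, Neat1 (0.85) and Tug1 (0.69), Malat1 standing at 0.33, and of 5 p53 targets 1 was higher, Gadd45a (0.92).

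**Figure D5:**
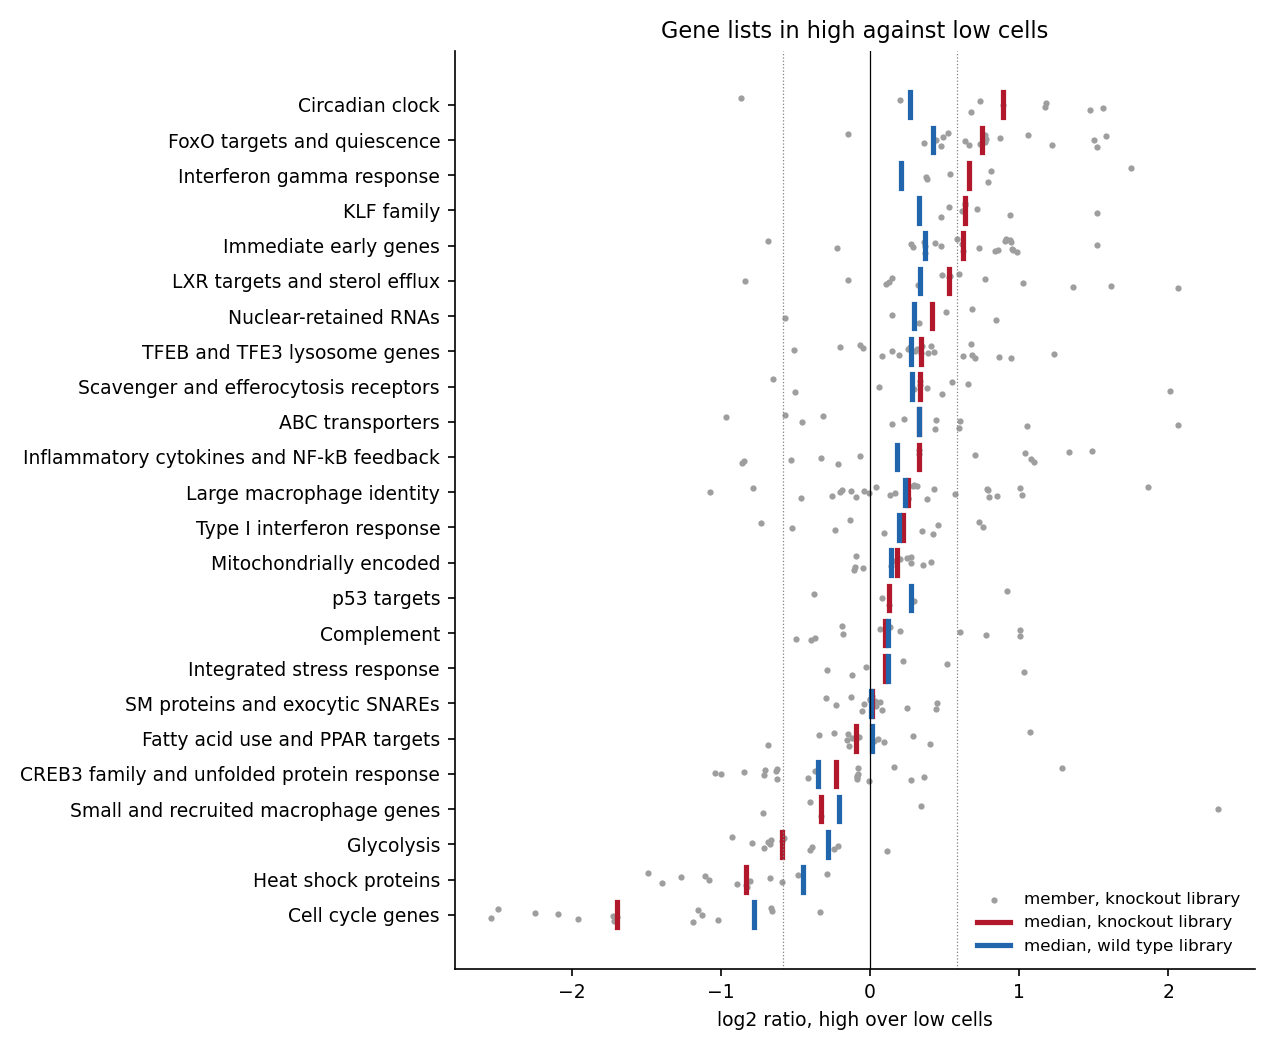
Log2 ratio of high over low cells (x axis) for the measured members (grey points, knockout library) of each gene list with at least 5 of them in that library. Bars are the list medians in the knockout (red) and wild type (blue) library, and dotted lines mark 1.5-fold. The knockout medians run from 0.89 for circadian clock genes to -1.70 for cell cycle genes, and the wild type medians mostly lie nearer 0.

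Markers of other cells were mostly at the edge of detection in both groups. Of the B cell genes, Cd79a was at 3.09 CPM in high and 2.91 CPM in low knockout cells, Cd79b at 0.471 and 0.401 CPM, and Ms4a1 and Pax5 at 0. T and NK cell markers summed to 0.336 CPM in high and 0.250 CPM in low cells with Cd3e and Trac at 0, mast cell and eosinophil markers to 0.942 and 0.501 CPM with Kit and Epx at 0, and mesothelial and fibroblast markers to 0.134 and 0.0501 CPM with Msln and Col1a1 at 0. Of the neutrophil list Csf3r was higher (83.4 and 43.6 CPM, 0.92) and S100a8 at -0.40, while S100a9, Retnlg and Ly6g were at 0. Dendritic cell markers summed to 42.3 CPM in high and 11.8 CPM in low cells (28.0 and 16.6 CPM in wild type) with Flt3 at 0. That sum was carried by Cd209a (20.2 and 3.21 CPM, 2.34) and Batf3 (20.6 and 8.06 CPM, 1.26), both named after their values were seen, and the part of other myeloid cells in it was not tested. Of 5 small macrophage genes Cd209a was higher and Clec10a lower (-0.72), with Chil3 at -0.40, Retnla at -0.33 and Lyz1 at 0.34. Cd209a and Batf3 passed the 20 CPM limit narrowly and in the high cells only, which favours counting them as higher. Haemoglobin Hbb-bs was lower (-2.06), but 697 of its 925 UMIs in low cells (75.4%) came from 1 cell.

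The high cells were not uniform in which score gene led. Stxbp3 had the most UMIs in 354 cells, Ypel3 in 376, Abca1 in 141 and Crebrf in 29, and 204 cells had a tie. Marco was at 176 CPM in the Abca1-led cells and at 39.4 to 39.8 CPM in the Stxbp3-led and Ypel3-led cells, and without Abca1 in the score its ratio of high over low cells fell from 2.01 to 0.98. Abcg1 was at 93.1 CPM in the Abca1-led cells and at 62.5 to 62.8 CPM in those led by Ypel3 or Stxbp3 or tied. In the wild type library Marco was at 186 CPM in the 218 Abca1-led cells and 52.6 CPM in the 307 Ypel3-led cells. Apoe differed little between these subsets of the knockout library, at 13200 to 16729 CPM.

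Single genes followed the score only weakly from cell to cell. Over 5433 knockout cells thinned to 5000 UMIs, the 6 genes outside the score with the highest Spearman correlation among 2318 were Fth1 (ferritin heavy chain, 0.335), Apoe (0.266), C4b (0.249), Mpeg1 (0.242), Timp2 (0.232) and H2-D1 (0.225). The lowest values were those of Tagln2 (-0.363) and Ccnd1 (-0.362). These cells share 1 library, and abundant genes are favoured by such a measure. Fth1 was at 5898 CPM in high and 3180 CPM in low cells (0.89; wild type 0.24).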

How the data were processed

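The files hold whole-number UMI counts per gene and barcode, which per the file headers came from Cell Ranger 6.1.2, as the authors deposited them. The submitters' processing notes also list bcl2fastq, Seurat 4.1.0 and the mm9 assembly, with no role given. All 55450 feature identifiers are in GENCODE M21 (GRCm38), which gave gene positions. The members and gene lists were chosen with earlier results of these data known. Counts were summed over high and over low cells, scaled to CPM and compared as log2((high + 1)/(low + 1)), with an exact conditional binomial 95% interval. Genes that reached 20 CPM in at least 1 of the groups were counted at 1.5-fold. A gene can pass this limit, or the 50 CPM limit below, through 1 group alone, which favours a call toward that group. Cells of 1 library are not replicates, so no p-value was computed. Named genes were the 4 score genes, Apoe, Klf4, the 14 highest and 14 lowest ratios at 50 CPM or more, up to 4 members per list with a mean of 20 CPM or more, and the 6 most correlated with the score. Mitochondrial, ribosomal, immunoglobulin, haemoglobin and sex-linked genes and unnamed models were left out of the 28 ranked genes. A few members of the lists (such as Gata6, Timd4, Adgre1, Icam2, Csf1r, Npc1, Abca7, C1qa, C1qb, C1qc, Cd79a, Cd79b, Lpl, Mxi1, Txnip, Srebf2, Myc, Hspa5, Malat1) were named besides these, after their values were seen. Most lists with measured members are given by their counts at 1.5-fold, and some results that need other genes are not reported here. Cycle genes were Mki67, Top2a, Cdk1, Ccnb1, Ccna2, Birc5, Ube2c, Rrm2 and Tyms. Doublets were kept: the automatic threshold of Scrublet called 1 barcode in each library, under 0.5%, so an alternative left out the 324 knockout and 313 wild type barcodes with the highest scores (0.8% per 1000 barcodes). These were 47 of the high and 30 of the low knockout cells. Ratios were checked on simulated counts. Scaling alternatives used edgeR 4.0.16 (TMM) and DESeq2 1.42.0 (size factors) on the deposited counts, in R 4.3.3, and the rest Python 3.11.15 with scanpy 1.11.5. In all, 24 alternatives and 1 more, chosen after these files were seen, were run.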

Additional observations from a re-analysis of the deposited data

How the results depend on the processing

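With 1 library per genotype no library could be left out. No paired analysis was possible because each genotype had 1 library. Under all 25 alternatives the 14 highest genes, Apoe and Klf4 kept their direction and 1.5-fold in the knockout library, as did 12 of the 14 lowest, the exceptions being Stmn1 and Mcm6. Of 25 list medians 15 kept their direction, and only the circadian clock median stayed past 1.5-fold. The named higher members of that list reached 20 CPM in the high cells only. Within depth bins the clock median was 0.75, that of the cell cycle -1.21 and that of heat shock -0.71. Medians past 1.5-fold in the main ranking that fell short within depth bins were FoxO and quiescence (0.56), KLF (0.51), immediate early (0.53), interferon gamma (0.57) and glycolysis (-0.45). Counts of genes higher and lower moved by over 1.5 times as follows. In the knockout library they were 477 and 71 with cells thinned before ranking, 305 and 245 thinned with ties in barcode order (chosen after seeing the data), 444 and 381 with the top and bottom 30%, 1371 and 1007 at 5 CPM, 320 and 371 at 50 CPM, and 1992 and 1245 with no filter. Lower genes numbered 311 without Ypel3 in the score and 410 within depth bins. TMM scaling gave 450 higher, and median of ratios scaling 381 higher and 1064 lower. In the wild type library the counts were 19 and 37 thinned with barcode-order ties, 354 and 226 with the top and bottom 10%, 43 and 75 with 30%, 63 and 189 with TMM, 44 and 247 with median of ratios, 326 and 248 at 5 CPM, 42 and 48 at 50 CPM, and 613 and 390 with no filter. Higher genes there numbered 46 without Abca1, 176 with the mean of per-cell CPM and 71 with 5 CPM added, and lower genes 4 thinned, 20 without Ypel3 and 76 without cycling cells. Of the wild type calls 25% were higher with TMM and 15.1% with median of ratios, against 50%. Knockout ratios and medians past 1.5-fold that changed sign were, thinned before ranking, Stmn1 (1.78), Mcm6 (0.46), Dut (0.28, from -2.09), Mcm3 (0.53, from -1.96) and the cell cycle median (0.46). Stmn1 (0.036) and Hbb-bs (0.36) changed sign without Ypel3, and Hbb-bs with the top and bottom 30% (0.49) and thinned with barcode-order ties (2.57). Below 1.5-fold, the ratios of Cdkn1a, Insig1, Kcnq1ot1, Nupr1 and Retnla and 9 other list medians changed sign under at least 1 alternative: cholesterol synthesis and uptake (to 0.62), small and recruited macrophages (to 0.27), fatty acid use (to 0.092), type I interferon (to -0.24), p53 targets (to -0.12), integrated stress response (to -0.12), SM proteins and SNAREs (to -0.17), complement (to -0.082) and mitochondrially encoded genes (to -0.005). The cause was not tested further than by the change of tie order. After thinning, the tie rule fills the low group with those cells without a score UMI that had the fewest genes. The CPM limits admit fewer or more genes. Depth limits the score: the cells on either side of the lower limit had 1 UMI each.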
